A study of Rattus norvegicus with 40 samples.

Results

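Hox genes and related homeobox genes of the Meis, Pbx, Irx, Pitx, Dlx, Lhx and Msx families, together with Six3, Six4, Six5 and Six6 of the sine oculis family, were examined in the intestine and lung of rat embryos. They were chosen by a rule on gene symbols that uses no expression value, although earlier results of these data were known. The annotation of the array held 59 probe sets (groups of short oligonucleotides that each measure a transcript) with such a symbol. They stood for 49 of the 14217 genes on the array that had a symbol of their own, namely 22 Hox genes and 27 others. For each gene the values below come from the probe set that was brightest in the mean of the 40 arrays, and 41 of the 49 genes had only 1 probe set.

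Hox genes encode homeodomain transcription factors that lie side by side in clusters, called Hoxa, Hoxb, Hoxc and Hoxd, and are numbered by paralogous group from the end expressed towards the head to the end expressed towards the tail. Genes of high number are used in the hind part of the body, including the hindgut, whereas genes of low and middle number are used further forward, including the lung mesenchyme. Meis and Pbx proteins belong to the TALE class of homeodomain proteins and bind DNA together with Hox proteins. Irx proteins are TALE proteins too, while sine oculis, Dlx, Lhx, Pitx and Msx proteins pattern organs in other settings.

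The arrays measured whole intestine and whole lung of Wistar rat embryos at 16 days (E16) and 20 days (E20) of gestation, with 10 arrays in each of the 4 groups. All groups shared the strain, Trizol extraction and biotin labelling, but labelling of intestine started from 1 µg of total RNA and labelling of lung from 2 µg, so organ and RNA amount cannot be told apart. Tissue of several siblings was frozen, and the labels do not say whether an array holds 1 embryo, so the spread between samples, which is all that the p-values below measure, may be technical. By its title the study addressed the changes that prepare both organs for birth.

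Array medians lay between 220 and 264 intensity units, and each array correlated with the rest of its group at a median of 0.959 to 0.988. The organs matched their labels. The summed level of 6 intestinal epithelium markers at E20 was 15.50 to 15.96 on the log2 scale in intestine and 8.70 to 9.11 in lung, and that of 6 lung epithelium markers was 15.84 to 16.30 in lung and at most 9.68 in intestine. Markers of neighbouring organs stood out in single arrays. Pancreas markers reached 11.12 to 11.56 in intestine E16 arrays 6, 8 and 9, against at most 9.70 in the other 7, and liver markers reached 13.14 and 13.30 in lung E20 arrays 1 and 8, against at most 10.22 in the other 8. Liver markers also reached 13.87 in intestine E16 array 9, against at most 11.59 in the other 9. Cardiac muscle markers reached 14.64 and 15.17 in lung E16 arrays 5 and 9, against 10.41 to 12.31 in the other 8. Array 9 was also the lowest of its group for Hoxa5, Hoxb2, Hoxb4 and Hoxb6. Without lung E16 arrays 5 and 9, left out after their values were seen, all 65 differences called among the 49 genes were still called.

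Upstream sequences are shown for 4 genes that carry the main contrasts: Hoxd10 and Hoxd1, the Hoxd genes with the largest falls in the intestine, and the neighbours Irx1 and Irx2, the genes with the largest excess in lung by their brightest probe sets (other probe sets of Irx3 and Irx5 gave larger ones at E20). Each is the 250 bases before the start of the gene on its own strand, 5′ to 3′, from RefSeq, build GRCr8: chr3:80001697-80001946 (plus strand) for Hoxd10, chr3:80072791-80073040 (plus strand) for Hoxd1, chr1:33122872-33123121 (plus strand) for Irx1 and chr1:32494931-32495180 (minus strand) for Irx2. Capitals mark a match to one of the motifs searched.
Hoxd10: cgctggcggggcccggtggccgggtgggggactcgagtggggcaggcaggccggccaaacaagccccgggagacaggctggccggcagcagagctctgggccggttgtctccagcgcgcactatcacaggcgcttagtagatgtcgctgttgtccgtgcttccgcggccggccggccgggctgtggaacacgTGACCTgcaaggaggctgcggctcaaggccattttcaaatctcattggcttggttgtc
Hoxd1: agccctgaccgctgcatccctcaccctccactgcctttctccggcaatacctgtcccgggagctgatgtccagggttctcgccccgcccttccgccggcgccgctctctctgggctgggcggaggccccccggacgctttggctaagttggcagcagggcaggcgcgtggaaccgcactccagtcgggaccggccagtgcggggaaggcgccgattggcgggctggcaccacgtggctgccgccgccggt
Irx1: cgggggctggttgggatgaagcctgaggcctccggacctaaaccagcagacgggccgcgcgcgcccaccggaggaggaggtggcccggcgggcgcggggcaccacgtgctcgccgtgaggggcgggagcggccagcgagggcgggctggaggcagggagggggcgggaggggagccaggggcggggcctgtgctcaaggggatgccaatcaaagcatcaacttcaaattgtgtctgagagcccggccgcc
Irx2: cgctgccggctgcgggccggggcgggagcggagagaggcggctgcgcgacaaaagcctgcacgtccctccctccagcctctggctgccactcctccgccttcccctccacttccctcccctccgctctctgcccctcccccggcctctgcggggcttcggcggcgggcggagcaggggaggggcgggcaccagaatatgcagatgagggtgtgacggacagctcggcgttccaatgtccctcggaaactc

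The table held 33 such windows for 31 of the 49 genes. They were searched on both strands for 4 motifs, none of which contains another: TGATNNAT (Hox with Pbx), TGACAG (Meis), TTTATG (Cdx) and AGGTCA, the repeated unit of retinoic acid receptor elements. AGGTCA, marked in capitals as its reverse complement in the Hoxd10 window, occurred in 4 of the 33 windows (Dlx1, Hoxc4, Hoxd10 and Hoxd4), against 14.1% of all 33469 windows. TTTATG also occurred in 4 (Hoxa9, Hoxd4, Meis1 and Pitx3; 11.4% of all), TGACAG in 3 (Lhx1, Six3 and Six6; 15.8%) and TGATNNAT in 1 (Hoxd11; 7.96%). A match is a description of letters, and the Hoxd1, Irx1 and Irx2 windows held none of these 4.

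In the intestine, none of the 49 genes rose between E16 and E20 and 19 fell. A gene is called risen or fallen (or higher or lower) where it changed at least 2-fold with an adjusted p under 0.05 in limma, adjusted over all 14217 genes. The fallen genes were 38.8% of the 49, against 6.26% of all genes that fell, and 8.79% of all genes rose. At an unadjusted p under 0.05, 3 of the 49 were higher and 34 lower. Shares of all genes at an unadjusted p are not given here, so these counts and those below cannot be set against a background. The median change of the 49 was -0.47 on the log2 scale, against -0.09 over all genes. In whole tissue, fewer cells that express a gene and less RNA per cell cannot be told apart.

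In the lung, none rose and 5 fell, which were 10.2% of the 49 against 4.63% of all genes, while 7.15% of all genes rose. At an unadjusted p under 0.05, 11 of the 49 were higher and 14 lower, and the median change was -0.10, against -0.01 over all genes. The 5 genes that fell in lung, Hoxb2, Hoxb3, Hoxb4, Hoxb6 and Hoxb7, also fell in intestine, and 14 others were called in intestine alone. The change itself differed between the organs, being higher in lung, for 15 genes (30.6%, against 9.13% of all genes) and lower in lung for none by limma (8.48% of all genes; 5 of the 49 at an unadjusted p under 0.05). Some of the 15, such as Hoxd10 and Hoxd1, were dim in lung at both ages, where a fall could hardly show.

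**Figure D1:**
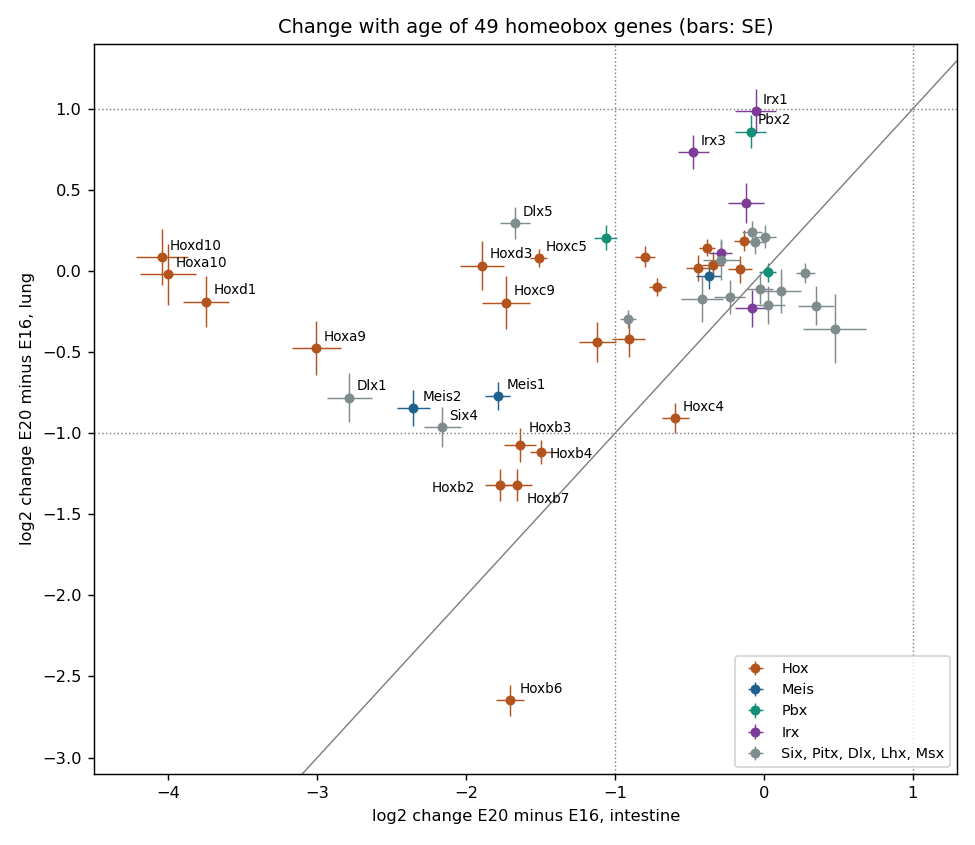
Change in log2 intensity from E16 to E20 of each of the 49 genes in intestine (horizontal axis) and lung (vertical axis), with bars for the standard error (SE), dotted lines at a 2-fold change and a solid line of equal change. Most Hox genes that fell lie far to the left near 0 on the lung axis (Hoxd10 -4.04 and 0.09), 4 of the 5 Hoxb genes that fell in both organs lie near the line of equal change, and Hoxb6 lies below it (-1.70 and -2.65).

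All 22 Hox genes lay lower at E20 than at E16 in the intestine, and 13 of them fell (59.1%, against 6.26% of all genes). The share of all genes that lay lower by any amount is not given here. The median change of the Hox genes was -1.51, against -0.09 over all genes. By cluster, 2 of 5 Hoxa genes fell, 5 of 6 Hoxb, 2 of 4 Hoxc and 4 of 7 Hoxd genes. By paralogous group, 5 of 7 genes of groups 1 to 4, 4 of 7 of groups 5 to 8 and 4 of 8 of groups 9 to 13 fell, so the falls were spread over the length of the clusters. Of the 4 changes below -2, those of Hoxd10, Hoxa10, Hoxd1 and Hoxa9, 3 were in groups 9 to 13.

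**Figure D2:**
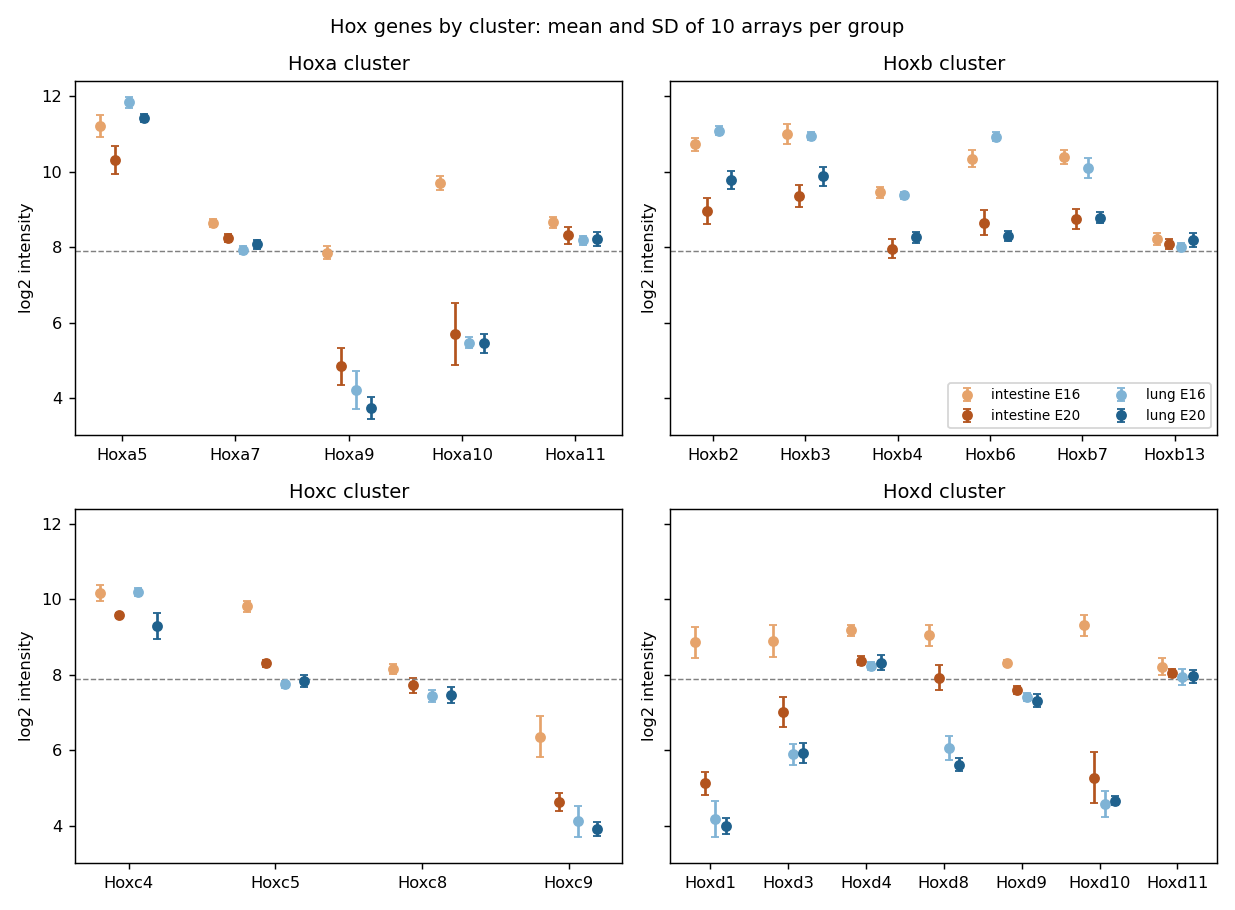
Mean log2 intensity (vertical axis) of the measured Hox genes of each cluster (horizontal axis, by paralogous group), with bars for the SD of the 10 arrays per group and a dashed line at the median of all values on the arrays (7.89). In the Hoxa, Hoxc and Hoxd panels intestine E16 stands above the other 3 groups for genes such as Hoxa10, Hoxc5 and Hoxd10, whereas in the Hoxb panel, except for Hoxb13, both E16 groups stand above both E20 groups.

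Hoxd10, a hindgut gene of the Hoxd cluster, had the largest fall on the values as deposited. Its log2 intensity at E16 in intestine was 9.02 at the lowest, 9.26 at the median and 9.92 at the highest of 10 arrays, and at E20 it was 4.75, 5.03 and 6.84. In lung it was 3.93, 4.67 and 5.16 at E16 and 4.39, 4.68 and 4.79 at E20. The 10 early intestine arrays thus lay above all 30 others. The mean went from 9.31 ± 0.28 to 5.27 ± 0.68 in intestine (SD, n = 10 each), a change of -4.04, or 16.5-fold (SE 0.18, limma adjusted p = 2.05e-23). In lung the change was 0.09 (SE 0.18), and the changes differed by 4.13 (SE 0.25, adjusted p = 2.81e-18).

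Hoxa10, its paralogue in the Hoxa cluster, was likewise high in the early intestine alone. In intestine it ran from 9.47 over 9.70 to 10.09 at E16 and from 4.86 over 5.46 to 7.5 at E20, and in lung from 5.32 over 5.42 to 5.83 and from 5.02 over 5.49 to 5.84 (lowest, median and highest). Its intestinal change was 16.0-fold downwards (-4.0, SE 0.19, adjusted p = 4.40e-22), against -0.02 in lung. Hoxa9, the neighbour of Hoxa10, ran from 7.57 to 8.14 in intestine at E16 and from 4.14 to 5.75 at E20, a change of -3.01 (SE 0.17, adjusted p = 9.32e-20). Hoxc9 ran from 5.27 to 6.94 at E16 and from 4.29 to 5.11 at E20 in intestine, and changed by -1.73 (SE 0.16, adjusted p = 1.04e-12). For all 4 genes the ages were fully separated in the intestine, as they were for 24 of the 49 genes and 37.6% of all genes.

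The low ends of these ranges are dim. With every value under 6.59, the lower quartile of all values on the arrays, raised to that quartile, the intestinal fall became -2.70 for Hoxd10, -2.99 for Hoxa10, -1.26 for Hoxa9 and -0.09 for Hoxc9, which was then no longer called. The order then turned, with larger falls for Hoxa10 and Dlx1 (-2.71) than for Hoxd10. No detection calls were used.

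The 10 intestine E20 arrays did not form 1 group for Hoxa10, Hoxd10 and Hoxa9. Hoxa10 was 7.5 in array 3 and 6.78 in array 5, and 4.86 to 5.67 in the other 8. For Hoxd10 the corresponding values were 6.84 and 6.15, against 4.75 to 5.21. Hoxa9 was 5.75 and 5.5 in them and at most 4.98 in the others. Hoxc9 was instead highest in array 9 (5.11). Array 3 was also the highest of the 10 for genes other than these, such as Hoxb6 (9.16) and Meis2 (10.23), but not for all (array 4 for Hoxd8). The summed markers of the other cell types were as follows in arrays 3 and 5: mesenchyme 15.42 and 15.12 (14.80 to 15.42 over the 10 arrays), smooth muscle 15.83 and 15.29 (14.92 to 15.83), and enteric neurons and glia 12.66 and 12.14 (11.49 to 12.66). Array 3 was thus the highest of the 10 for all 3 lists and array 5 was not, and the part of these lists in the result was not tested. Without both arrays, chosen after the values were seen, all 19 falls were still called. Leaving out the highest E20 arrays of Hoxa10, Hoxd10 and Hoxa9 can only deepen their falls, so for these genes this is no check.

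**Figure D3:**
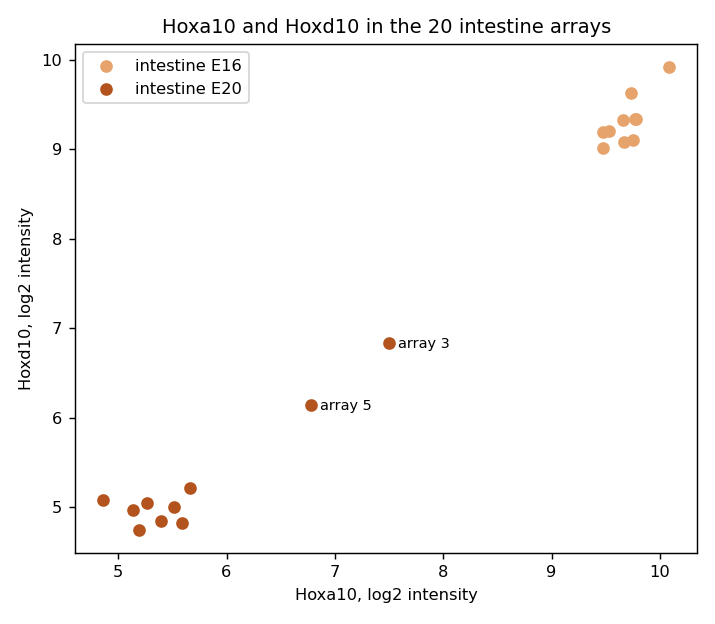
Log2 intensity of Hoxa10 (horizontal axis) against Hoxd10 (vertical axis) in the 20 intestine arrays, 1 point per array. The 10 E16 arrays sit together at the upper right, 8 E20 arrays at the lower left, and E20 arrays 3 (7.5 and 6.84) and 5 (6.78 and 6.15) between them.

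Genes at the other end of the Hoxd cluster fell too. Hoxd1, at the end expressed towards the head, ran from 8.21 over 8.93 to 9.41 in intestine at E16 and from 4.62 over 5.18 to 5.52 at E20. In lung it was dim, from 3.58 to 5.27 and from 3.76 to 4.43. Its intestinal change of -3.75 (13.4-fold, SE 0.16, adjusted p = 4.77e-24) was the third largest of the 49 genes on the values as deposited. With values raised to at least 6.59 it was -2.28, still called but smaller than the falls of Hoxa10, Dlx1, Hoxd10 and Meis2.

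Between the ends of the cluster, Hoxd3 ran from 8.26 to 9.54 at E16 and from 6.45 to 7.68 at E20 in intestine, and changed by -1.89 (SE 0.15, adjusted p = 9.20e-15). A dimmer second probe set of Hoxd3 changed by -0.31 and was not called, and its difference between the organs' changes was 0.02, against 1.93 for the first. Hoxd8 ran from 8.62 to 9.54 and from 7.46 to 8.39, and changed by -1.12 (SE 0.12, adjusted p = 1.15e-10). Hoxd4 (-0.80), Hoxd9 (-0.71) and Hoxd11 (-0.16) did not reach the 2-fold threshold, although the arrays of the 2 ages did not overlap for Hoxd4 and Hoxd9. In lung, none of the 7 Hoxd genes was called by limma, with changes from -0.44 to 0.09 and 1 of the 7 lower at an unadjusted p under 0.05.

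In the Hoxc cluster, Hoxc5 ran from 9.61 to 10.03 in intestine at E16 and from 8.19 to 8.47 at E20, a change of -1.51 (SE 0.06, adjusted p = 2.14e-25) with the smallest SE among the called genes. In lung it stayed between 7.65 and 8.07 at both ages. The brighter probe set of Hoxc4 changed by -0.60 in intestine and -0.91 in lung, while its second one went from 9.84 ± 0.12 to 8.12 ± 0.39 in intestine and from 7.24 ± 0.27 to 5.39 ± 0.26 in lung (SD, n = 10 each). The changes of that second set, -1.72 and -1.85, were both called (adjusted p = 2.30e-16 and 3.60e-17). The RefSeq gene table gives Hoxc6 bounds that overlap those of Hoxc4 and Hoxc5, so a probe set there may read more than 1 transcript, which was not tested.

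The 5 Hox genes that fell in lung were all of the Hoxb cluster. Hoxb6, of the middle of the cluster, ran from 10.70 over 10.94 to 11.05 in lung at E16 and from 8.04 over 8.32 to 8.44 at E20. In intestine it ran from 10.05 over 10.41 to 10.66 and from 8.10 over 8.71 to 9.16. Neither organ's ages overlapped. The lung change was -2.65 (6.26-fold, SE 0.09, adjusted p = 8.86e-26) and the intestinal one -1.70 (3.26-fold, SE 0.09, adjusted p = 1.19e-19). The difference between these changes, -0.94 (SE 0.13, adjusted p = 6.54e-08), lay under the 2-fold threshold and passed it (-1.07) with each array centred on its median.

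Hoxb2 changed by -1.77 in intestine and -1.32 in lung, and Hoxb7 by -1.66 and -1.32. Hoxb3 changed by -1.64 and -1.07, and Hoxb4 by -1.5 and -1.12, so all 4 fell in both organs. Their SE was between 0.07 and 0.11, and none of the differences between organs, 0.34 to 0.57, reached 2-fold. Hoxb2, which acts in the hindbrain and pharyngeal region, went from 10.73 ± 0.17 to 8.96 ± 0.34 in intestine and from 11.09 ± 0.12 to 9.77 ± 0.24 in lung. Hoxb13, at the end of the cluster expressed towards the tail, was not called in either organ, with mean levels between 8.01 and 8.21 in the 4 groups. In a test against a 2-fold change rather than against 0, Hoxb3 and Hoxb4 lost their call in lung.

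The remaining Hox genes moved less. Hoxa5, which is needed for lung and airway development, ran from 11.52 to 12.01 in lung at E16 and from 11.28 to 11.57 at E20. In intestine it ran from 10.81 to 11.58 and from 9.75 to 10.87. Its changes of -0.42 and -0.91 were under the threshold, and the ages overlapped in both organs. The RefSeq table gives Hoxa3 bounds that overlap Hoxa5, so the limit stated for the Hoxc genes holds here too. Hoxa7, Hoxa11 and Hoxc8 changed by -0.34 to -0.44 in intestine and by 0.02 to 0.14 in lung.

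Between the organs at E16, 4 of the 49 genes were higher in lung (8.16%, against 2.13% of all genes) and 12 were lower (24.5%, against 3% of all genes). The median difference, lung minus intestine, was -0.30, against -0.11 over all genes, and the arrays of the 2 organs did not overlap for 24 of the 49 genes and 19.3% of all genes. None of the Hox genes was higher in lung and 8 were lower; at an unadjusted p under 0.05, 3 of the 22 Hox genes were higher and 16 lower. The 8 called lower were Hoxa9, Hoxa10, Hoxc5, Hoxc9, Hoxd1, Hoxd3, Hoxd8 and Hoxd10, with differences from -2.07 (Hoxc5) to -4.74 (Hoxd10, SE 0.18, adjusted p = 7.43e-25). With values raised to at least 6.59 the Hoxd10 difference was -2.72, and that of Hoxc9 went from -2.25 to -0.09 and was no longer called. By its second probe set Hoxc4 was lower in lung too (-2.60, adjusted p = 1.67e-21), against 0.02 by the brighter one, whereas the second set of Hoxd3 was not called (-0.58). The 6 Hoxb genes lay between -0.30 and 0.59. The E16 difference and the intestinal change use the same 10 intestine arrays.

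At E20 the organs lay closer for most Hox genes. Of the 49 genes, 5 were higher and 5 lower in lung, each 10.2%, against 7.91% and 8.21% of all genes, so the counts were near the background. For Hoxa10 the difference was -0.25 (SE 0.19) and for Hoxd10 -0.61 (SE 0.18), and the organs' arrays overlapped for both. By the brightest probe sets, Hoxd8 was the Hox gene with the largest remaining difference, at 7.93 ± 0.33 in intestine and 5.62 ± 0.18 in lung (-2.31, SE 0.12, adjusted p = 2.62e-20). The second probe set of Hoxc4 differed more (-2.72, SE 0.12, adjusted p = 4.50e-23), while its brighter set differed by -0.29. Hoxd1 (-1.12), Hoxa9 (-1.11) and Hoxd3 (-1.09) were also lower in lung, but none of the 3 was called with values raised to at least 6.59. Without intestine E20 arrays 3 and 5, Hoxa9 (-0.91) and Hoxd3 (-0.98) were no longer called, which left 3 lower genes. Hoxa5 was the only Hox gene called higher in lung, by 1.11 (SE 0.11, adjusted p = 5.80e-12), and its organs did not overlap at E20 (9.75 to 10.87 in intestine, 11.28 to 11.57 in lung).

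**Figure D4:**
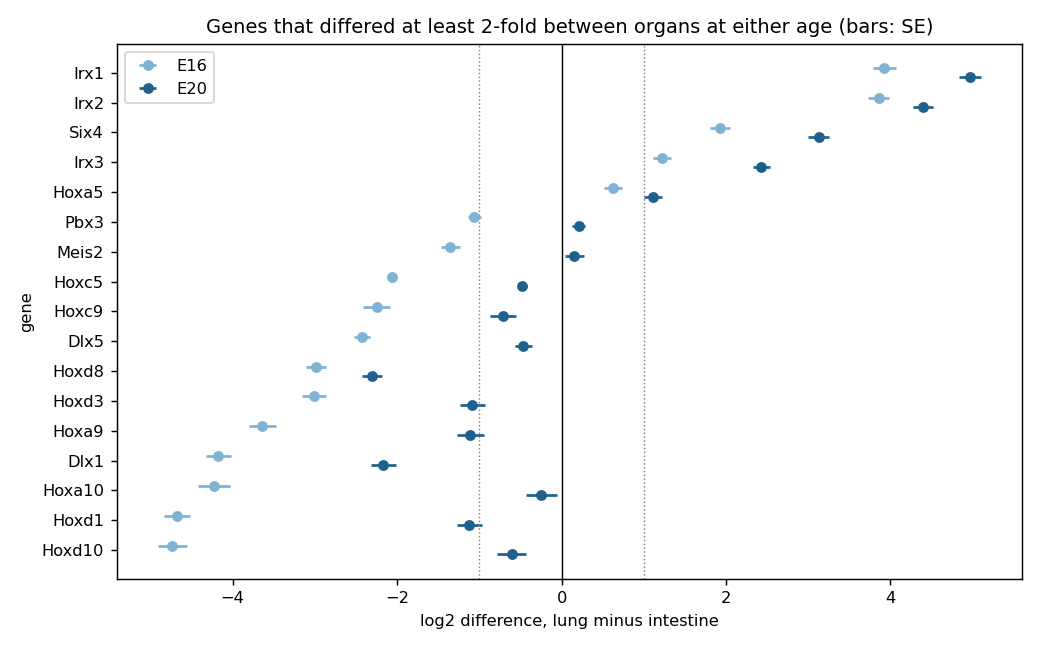
Difference in log2 intensity, lung minus intestine (horizontal axis), at E16 and E20 with bars for the SE, for the 17 genes called at either age, and dotted lines at 2-fold. The Hox genes and Dlx1 and Dlx5 lie left of 0 at E16 and nearer to 0 at E20 (Hoxd10 -4.74 and -0.61), except Hoxa5, while Irx1, Irx2, Irx3 and Six4 lie right of 0 and farther from it at E20.

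Among the cofactors, Meis1 and Meis2, which bind DNA with Pbx and Hox proteins, both fell in the intestine. Meis2 ran from 11.81 over 11.98 to 12.09 in intestine at E16 and from 8.78 over 9.73 to 10.23 at E20, a change of -2.36 (5.12-fold, SE 0.11, adjusted p = 3.51e-22). In lung it ran from 10.37 over 10.63 to 10.78 and from 9.47 over 9.74 to 10.09, a change of -0.85 (SE 0.11) that was not called. Neither organ's ages overlapped, and the changes differed by 1.51 (SE 0.16, adjusted p = 3.49e-11). At E16 Meis2 was lower in lung (-1.35), and at E20 the organs overlapped.

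Meis1 went from 12.16 ± 0.11 to 10.37 ± 0.35 in intestine (-1.79, SE 0.09, adjusted p = 7.99e-22) and from 11.87 ± 0.11 to 11.11 ± 0.11 in lung (-0.77). The difference between these changes, 1.02, was just above the threshold and fell under it (0.89) with each array centred on its median. Pbx3, a Pbx gene with a role in the hindbrain, fell in the intestine from 11.70 ± 0.10 to 10.64 ± 0.30 (-1.06, SE 0.08, adjusted p = 3.21e-16) and was 10.64 ± 0.03 and 10.85 ± 0.13 in lung. Its E16 difference between organs, -1.06, came to -0.91 with arrays centred. Meis3 and Pbx4 were not called in any of the 5 comparisons.

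Pbx2, a relative of Pbx3, had a higher mean in lung at E20 than at E16 without passing the threshold. It was 9.29 to 9.96 at E16 and 9.44 to 10.73 at E20 in lung, a change of 0.86 (SE 0.10). The low value at E20 was array 1, with 9.44, against 10.22 to 10.73 in the other 9, and array 1 was 1 of the 2 with raised liver markers (13.14). Without the 7 arrays in which markers of neighbouring organs were high in earlier results of these data, lung E20 arrays 1, 6 and 8 among them, the change was 1.02 and was called, as were the organ difference at E20 (1.01) and the difference between the organs' changes (1.12).

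Irx1, Irx2 and Irx3, 3 of the 5 Irx genes, were higher in lung than in intestine at both ages by their brightest probe sets. Irx1 was 8.98 at the lowest, 9.82 at the median and 10.18 at the highest in lung at E16, and 9.93, 10.87 and 11.32 at E20. In intestine it was 5.63, 5.74 and 6.53 at E16 and 5.48, 5.82 and 6.08 at E20. The organs were far apart at both ages, by 3.93 at E16 (15.2-fold, SE 0.14, adjusted p = 9.82e-26) and 4.97 at E20 (31.3-fold, SE 0.14, adjusted p = 1.88e-30). The change in lung, 0.99 (SE 0.14), was just under the threshold and was not called. It was 1.17 and called without the 7 arrays left out for Pbx2, and 1.03 and called with array weights. Those 7 include lung E20 array 6, which was the lowest of its group for Irx1 (9.93). That array was not among those named above for raised markers, and leaving it out raises the E20 mean of Irx1. The difference between the organs' changes, 1.04, was called but fell to 0.91 to 0.99 and lost its call with quantile normalization, arrays centred or values raised to at least 6.59, and to 0.54 with the mean of both probe sets. A second, dimmer probe set of Irx1 differed by -0.28 between the organs at E16.

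Irx2, the neighbour of Irx1, had the same order of groups, with 8.5 to 9.53 and 9.30 to 9.91 in lung and 4.91 to 6.13 and 4.93 to 5.55 in intestine. It was higher in lung by 3.86 at E16 (SE 0.12, adjusted p = 6.79e-27) and 4.40 at E20 (SE 0.12, adjusted p = 3.77e-30). With values raised to at least 6.59 these differences were 2.63 and 3.05, and those of Irx1 were 3.19 and 4.17. Irx3 was higher by 1.22 at E16 and 2.43 at E20 with the brightest probe set, whose suffix marks possible cross-hybridisation. A second Irx3 probe set of nearly the same mean level differed by 3.18 and 5.36 and changed by -1.38 in the intestine, while the other, dim one differed by -0.26 and -0.15 and was not called. Both the size and the call for Irx3 thus depended on the probe set.

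For Irx5 the call itself depended on the probe set. The brightest was not called in any comparison, with group means between 7.74 and 8.07. The other ran from 4.22 to 5.91 at E16 and from 3.46 to 4.40 at E20 in intestine, and from 8.36 to 9.60 and from 9.76 to 10.72 in lung, so no lung array overlapped with an intestine array. By that probe set Irx5 was higher in lung by 4.01 at E16 and 6.45 at E20 (SE 0.17, adjusted p = 4.14e-23 and 1.89e-31), rose in lung (1.38) and fell in intestine (-1.07). Irx4 was not called with either of its probe sets, with differences from -0.34 to 0.22.

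**Figure D5:**
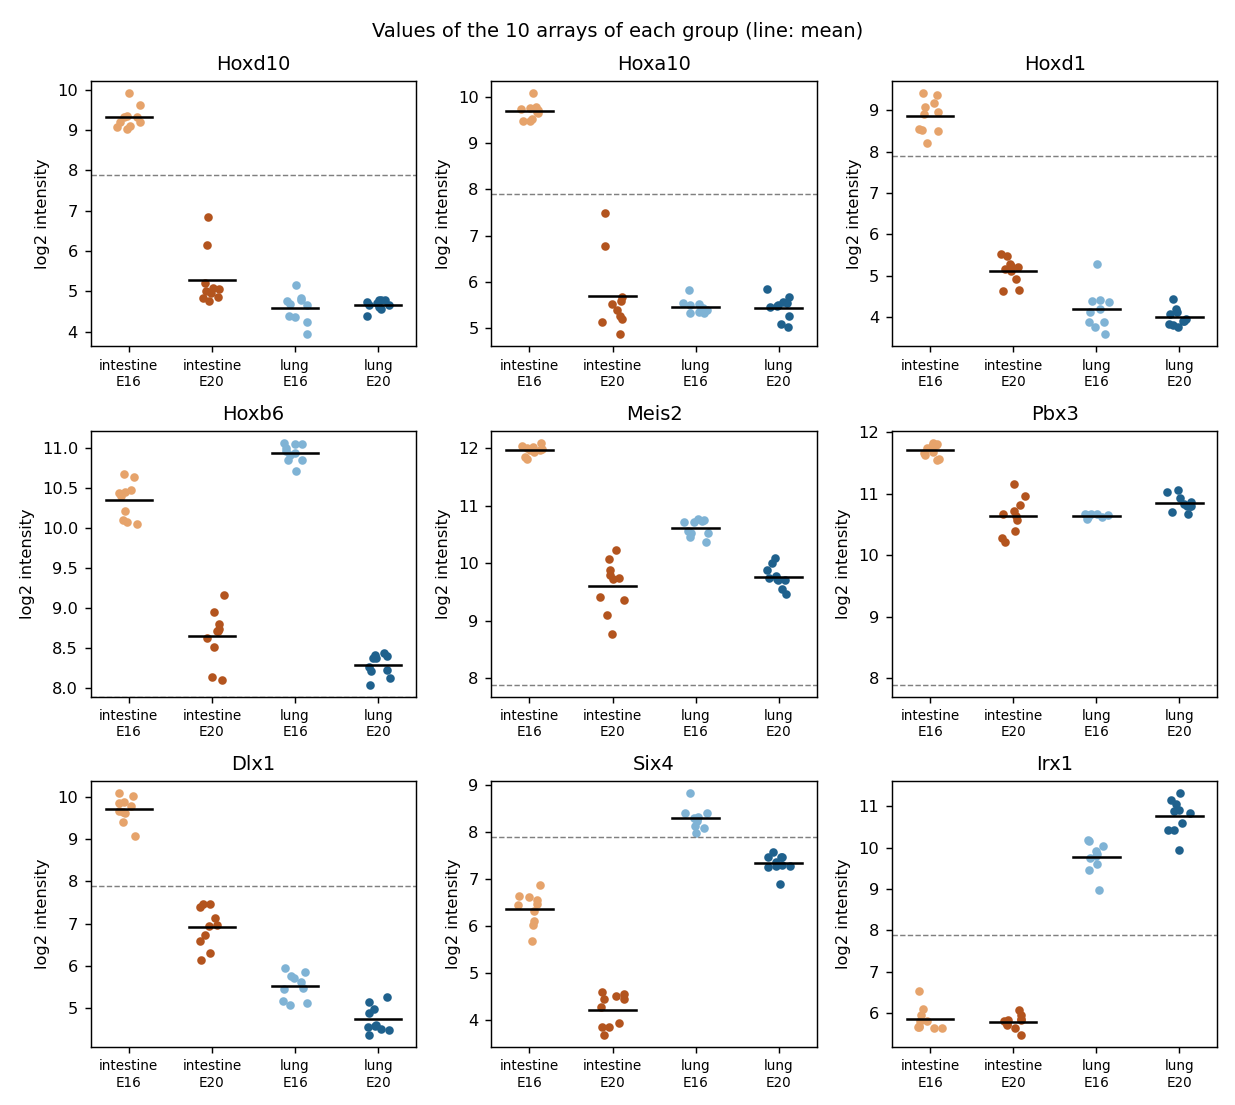
Log2 intensity (vertical axis) of 9 genes in each of the 40 arrays, by group (horizontal axis), with a line at the mean of the 10 arrays of a group and a dashed line at 7.89, the median of all values. Hoxd10, Hoxa10 and Hoxd1 are high in intestine E16 alone, Hoxb6 is high in both organs at E16, and Irx1 is high in lung at both ages (9.93 to 11.32 at E20, against 5.48 to 6.08 in intestine).

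Of the other families, Dlx1 had its highest level in the early intestine. It ran from 9.07 over 9.72 to 10.08 in intestine at E16 and from 6.14 over 6.95 to 7.46 at E20, and in lung from 5.09 over 5.55 to 5.96 and from 4.38 over 4.58 to 5.26. All 20 intestine arrays lay above all 20 lung arrays. The intestinal fall was -2.79 (6.90-fold, SE 0.15, adjusted p = 5.09e-20), and Dlx1 was lower in lung at E16 (-4.17) and E20 (-2.17). With values raised to at least 6.59 these differences were -3.11 and -0.39, the second no longer called. Dlx genes act in neurons and skeletal elements, and of 7 markers of enteric neurons and glia 5 fell in the intestine. The summed level of those markers was 13.06 to 13.66 at E16 and 11.49 to 12.66 at E20 in intestine, and 10.61 to 11.19 and 9.94 to 10.36 in lung, and their part in the Dlx result was not tested. Dlx5 fell in intestine from 8.02 ± 0.32 to 6.35 ± 0.16 (-1.67, SE 0.10, adjusted p = 1.25e-18), and Dlx3 was not called (0.01).

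Six4 was higher in lung than in intestine at both ages. In lung it ran from 7.98 over 8.28 to 8.82 at E16 and from 6.89 over 7.33 to 7.57 at E20, and in intestine from 5.67 over 6.45 to 6.87 and from 3.68 over 4.35 to 4.59. No 2 groups overlapped. The difference between organs was 1.93 at E16 (SE 0.12, adjusted p = 7.64e-17) and 3.13 at E20 (SE 0.12, adjusted p = 9.89e-25). The change was -2.16 in intestine and, not called, -0.96 in lung, which came to -1.04 and was called with each array centred. The difference between these changes, 1.20, reversed to -0.93 when values were raised to at least 6.59, a level above most of the intestine values, and the intestinal fall (-0.03) and the E20 difference (0.74) were then not called. Six5 changed by -0.91 in intestine without overlap of the arrays, under the threshold, and Six3 and Six6 changed by -0.29 and -0.06.

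None of the 5 Lhx, 2 Pitx and 2 Msx genes was called by limma in any of the 5 comparisons. At an unadjusted p under 0.05 in the intestine, 2 Lhx genes were higher and 1 lower, 1 Pitx gene was higher and 1 lower, and no Msx gene was different. Msx1, with a role in mesenchyme at sites of epithelial contact, had group means of 8.46 to 8.76. Lhx2, a LIM homeobox gene, was dim and scattered, from 3.55 to 6.21 in the intestine at E16. Of the 49 genes, 14 lay under the median of all values in the mean of every group, so a flat dim probe set does not show that a gene did not change.

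Genes that act with or upstream of the members were taken from lists. Of 6 measured Hox partners and TALE genes outside the families above, 2 fell in both organs (33.3% in each, against 6.26% of all genes in intestine and 4.63% in lung): Tgif2 (-1.87 in intestine, -1.05 in lung), a TALE repressor, and Gmnn (-1.11 and -1.54), a replication inhibitor that also binds Hox proteins. Of 17 genes of retinoic acid signalling and the Cdx family, 2 rose (11.8%) and 7 fell (41.2%) in intestine, against 8.79% and 6.26% of all genes. In lung 1 rose (5.88%) and 3 fell (17.6%), against 7.15% and 4.63%. Rarb, a retinoic acid receptor, fell in intestine from 10.22 to 7.62 (-2.60, SE 0.11, adjusted p = 2.18e-23) and was 8.69 and 8.77 in lung. Crabp2, a retinoic acid carrier, fell in both (-2.96 and -4.33), and Aldh1a1, an enzyme that makes retinoic acid, fell in intestine (-1.69) and rose in lung (1.74). Cdx2, a regulator of hindgut Hox genes and of the intestinal epithelium, rose in intestine by 4.31 (SE 0.12, adjusted p = 8.51e-31) and changed by -0.04 in lung.

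Of 30 Polycomb and trithorax genes, which encode the chromatin proteins that keep Hox genes off or on, 3 fell in intestine, and 4 fell and 1 rose in lung. The lower shares were 10% and 13.3%, against the 6.26% and 4.63% of all genes. Cbx2 fell in both organs (-1.49 and -1.27), Ezh2 fell in lung (-1.47) and its relative Ezh1 rose there (1.05). Of 5 partner genes of the sine oculis family, 1 (20%), Dach1, rose in intestine (1.32), and of 9 LIM partners 2 fell in each organ (22.2%), among them Lmo4 (-1.10) in intestine. Of 52 homeobox genes of other families, 4 rose and 7 fell in intestine and 2 rose and 3 fell in lung, shares of 7.69% and 13.5%, and of 3.85% and 5.77%. Over all genes these shares were 8.79% and 6.26%, and 7.15% and 4.63%, so those other than the falls in intestine lay near or under the background. Zfhx4 fell in intestine (-3.07) and rose in lung (1.51). Meox2 (4.11) and Nkx2-1 (3.03), the regulator of lung epithelium, were the homeobox genes of that list with the largest excess in lung at E16.

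Markers of the cell types in the tissue moved with age as well. The summed level of 10 epithelial markers went from a median of 12.68 at E16 to 15.73 at E20 in intestine, where all 10 rose, and from 12.65 to 14.45 in lung, where 8 rose. In intestine the 12 mesenchyme markers, of which 2 fell, summed to 15.10 to 15.62 at E16 and 14.80 to 15.42 at E20. In lung, where 3 rose, they summed to 14.78 to 15.34 and 15.25 to 15.58. The ages overlapped in both organs for these sums, which the brightest markers dominate. At an unadjusted p under 0.05 in intestine, 7 of the 12 were lower and 3 higher (median change -0.30). The change was higher in lung for 4 of the 12 (33.3%, against 9.13% of all genes) and lower for none, with a median difference of 0.95. Erythroid markers fell furthest: all 5 measured fell in intestine (median change -4.22) and 3 of 5 in lung (-1.14), and the change was higher in lung for all 5 (median 2.54). Their summed level went from 15.60 to 16.23 at E16 to 10.97 to 12.35 at E20 in intestine, and from 15.30 to 15.66 to 12.87 to 14.07 in lung. Of 5 mesothelium markers 3 fell and 2 rose in intestine, and 2 fell and 2 rose in lung. Of 7 cartilage markers 4 fell in intestine and 3 in lung. Hox, Meis and Pbx genes are known from the mesenchyme of both organs, and the part of tissue composition, erythroid cells included, in their changes was not tested.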

How the data were processed

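RNA of 2 whole organs, intestine and lung, from E16 and E20 rat embryos was measured on 40 Affymetrix rat arrays, 10 per group, grouped by the labels. The deposited values were normalized summary intensities on a linear scale, 1 for each of 31099 probe sets. RMA, which corrects background, normalizes and summarises probes, is named in the submitters' processing notes without a version, and the sources used here do not say whether both organs were normalized in 1 run. Log2 of the deposited intensity was taken before every test. Probe sets with 1 symbol (20832, of which 6 control probe sets were left out) gave 14217 genes, each represented by its brightest probe set over the 40 arrays.

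A mean per group was fitted to all 40 arrays with limma 3.58.1 in R 4.3.3, with no covariate. The 5 contrasts were the change from E16 to E20 in each organ, the difference of these changes, and the organ difference (lung minus intestine) at E16 and at E20. Calls needed a Benjamini-Hochberg adjusted p under 0.05 over all genes and a log2 difference of at least 1, two-sided. The fit was tested on simulated data. Any of the 49 genes could be named, and full values by array were given for those called with a difference of at least 2 in size in some contrast and for 1 per family otherwise. Of the other lists, at most 3 called genes per list and contrast with the largest difference were named. The genes and lists were chosen with earlier results of these data known. Arrays have no depth, so their number limits the precision. Samples of the same replicate number were checked for pairing: 7 of 10 pairs of E16 organs correlated above 0.1, as did 4 of 10 at E20 and 5 of 10 between ages in each organ. The numbers were not treated as pairs. For the E16 organs, however, the median correlation was 0.27 for the same number and -0.04 for different numbers. There 6 of 10 matched their own number best, against 1 at E20 and 2 between ages in each organ. A transcript that marks sex was in the same state in 8 of the 10 same-number pairs of E16 organs. At E20 this held for 4 of 10, and between ages for 5 of 10 in each organ. Whether E16 organs of the same number share an embryo was not tested further. Alternatives covered normalization between arrays, dim values, probe set choice, call rule, samples in the fit, array weights and the variance prior. A comparison of the encoded proteins was not made, since no protein table was used here.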

Additional observations from a re-analysis of the deposited data

Results flagged for a closer look

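Groups of 10 arrays were tested for an outlying array only where the mean of the gene lay above the median of all values. Dim ones, such as Hoxd10 in intestine at E20, were left out. In 8 of the 101 groups tested, 1 array lay far from the nearest other relative to the group's range. Chance alone flags about 1 group in 20. The high ones were Hoxa10 in intestine E16 array 1 (10.09) and Six4 in lung E16 array 1 (8.82). The low ones were Hoxa5 in lung E16 array 9 (11.52), Hoxa7 in intestine E20 array 1 (8.01) and in lung E20 array 8 (7.82), Hoxd11 in lung E16 array 4 (7.37), Irx2 in lung E16 array 2 (8.5) and Pbx2 in lung E20 array 1 (9.44).

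The change with age differed between lung and intestine for 15 of the 49 genes in the limma test of the difference itself, and was higher in lung for each. Hoxd10, Hoxa10, Hoxd1, Hoxa9, Hoxd3, Hoxc9, Dlx1 and Dlx5 had lung means under 6.59, the lower quartile of all values, at both ages. A fall in lung could hardly show for them, so their difference largely repeats the intestinal fall. For Hox genes the difference was 4.13 (Hoxd10, adjusted p = 2.81e-18), 3.98 (Hoxa10, 1.11e-16), 3.56 (Hoxd1, 7.90e-18), 2.53 (Hoxa9, 1.75e-12), 1.93 (Hoxd3, 1.56e-10), 1.59 (Hoxc5, 1.64e-20) and 1.54 (Hoxc9, 1.46e-07). For the others it was 2.01 (Dlx1, 7.40e-11), 1.97 (Dlx5, 9.07e-16), 1.51 (Meis2, 3.49e-11), 1.27 (Pbx3, 9.99e-14), 1.21 (Irx3, 2.79e-09), 1.20 (Six4, 1.27e-07), 1.04 (Irx1, 9.96e-06) and 1.02 (Meis1, 1.25e-09). Of these, Hoxc9 came to 0.09 and Irx1 to 0.99 with values floored at the lower quartile, Hoxd3 to 0.97 and Irx1 to 0.54 with the mean of all probe sets, and Irx1 to 0.97 after quantile normalization. With arrays centred on the median Irx1 came to 0.91 and Meis1 to 0.89, and none of these values was called.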

How the results depend on the processing

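Of the 65 differences called among the 49 genes, 61 were still called after quantile normalization, 62 with each array centred on its median, 62 with the mean of all probe sets of a gene, 49 in a test against a 2-fold change and 54 with values floored at the lower quartile, where the Six4 difference between organ changes also reversed (-0.93). All 65 were called in a fit of only the groups compared, with array weights and with a trended and robust prior. They were also all called without the 7 arrays in which earlier results showed markers of other organs. The same held, added after seeing the data, without lung E16 arrays 5 and 9. Dropping the minimum fold cannot lose any of the 65, so it is no check on them. With the replicate number as a block (replicate block), all 65 were called as well and the counts were the same, 19 falls in intestine among them. With no minimum fold, 3 genes were higher and 33 lower in intestine, 11 and 14 in lung, 34 and 5 for the difference of the changes, 7 and 30 at E16, and 13 and 25 at E20. For this and the other call rules no share of all genes is given here, so the counts cannot be set against a background. Against a 2-fold change, 3 were lower in lung, 9 had the higher change in lung, and 2 were lower in lung than intestine at E20. That last count was also 2 after quantile normalization, 1 with floored values and 3 without intestine E20 arrays 3 and 5. Some settings also added calls. Array weights gave 1 gene higher in lung with age (Irx1), 1 lower difference of the changes (Lhx2) and 1 higher (Pbx2). Centring gave 1 lower difference (Hoxb6) and a fall of Six4 in lung (-1.04). Leaving out the 7 arrays gave 2 genes higher in lung with age (Irx1 and Pbx2), and Pbx2 in the difference of the changes (1.12) and at E20 (1.01). The mean of all probe sets added 7 calls: Hoxc4 fell in intestine (-1.16) and lung (-1.38) and was lower in lung at E16 (-1.29) and E20 (-1.51), and Irx5 was higher in lung at E16 (1.84), at E20 (3.26) and in the difference of the changes (1.42). Floored values added Hoxd8 in that difference (1.11), and leaving out suffixed probe sets the intestinal fall of Irx3 (-1.38). The cause of these shifts was not tested, beyond what each setting does by construction. Centring moved the median of all genes from 0.03 to -0.10 for the difference of the changes and from -0.11 to 0.04 at E16. Dim probe sets limit the size of the intestinal falls of Hoxa9, Hoxa10, Hoxc9, Hoxd1, Hoxd10 and Six4.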
